A study of Mus musculus with 2 samples.

Results

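The mitochondrial ribosome, or mitoribosome, makes the proteins encoded in mitochondrial DNA, which are subunits of the respiratory chain and of ATP synthase. Its RNAs come from mitochondrial DNA, but its proteins are encoded in the nucleus, made in the cytosol and imported. Some of these proteins have counterparts in bacterial ribosomes, and others have none. Many promoters of nuclear genes for mitochondrial proteins are known to bind NRF1, YY1 and factors of the ETS family, such as GABP. In the fetal liver the mitochondria of erythroid cells also make heme.

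The genes described here are the protein-coding genes of the GENCODE vM21 annotation whose symbol starts with Mrpl or Mrps, 78 of 21938 protein-coding genes. Mrpl stands for proteins of the large subunit (49 genes) and Mrps for those of the small subunit (29 genes). As background, the products of Mrps30 and Mrps18a sit in the large subunit although their symbols start with Mrps, and the product of Mrps36 is now known as a part of the 2-oxoglutarate dehydrogenase complex. The measurement was DNase-seq, in which open chromatin is found from where DNase I cuts the DNA of isolated nuclei. There were 2 libraries of mouse liver at embryonic day 13.5, biological replicates 1 and 2 of a single group. Per the labels the strain is C57BL/6N,129, and the genotype given for both is LCR deletion with HET globin mutation, without further detail of either allele. Both biosamples stand under the same donor identifier, so that separate animals are not shown by the labels, and sex was not collected. There was no control group, so nothing here compares genotypes, and with 1 group no test between conditions was possible.

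Replicate 1 had 47198 peaks and replicate 2 had 36523 peaks. The labelled tissue was set against marker genes of its cell types. Of 8 erythroid genes 7 had a promoter peak in both libraries, against 54.1% of all protein-coding genes. These were Gata1, Klf1, Epor, Slc4a1, Tal1, Nfe2 and Epb42, and Alas2 had one in replicate 1 alone. Among the hepatoblast genes Foxa3, Cebpa and Afp had one in both libraries, and Alb, Hnf4a and Apoa2 had none in either. Against the same 54.1%, the counts were 0 of 5 for macrophages, 1 of 5 for endothelium and 2 of 5 for stellate cells. The hepatoblast genes thus went both ways. The values below are of whole liver tissue, and the part of each cell type in them was not tested.

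A promoter peak is a peak within 1000 bases of any annotated transcript start of the gene. All 78 mitoribosomal protein genes had a promoter peak in both libraries, against 54.1% of all protein-coding genes (58.5% in replicate 1 and 55.4% in replicate 2). In the shorter peak lists 77 of the 78 were open in both libraries, against 48.8% of all genes, and the exception was Mrpl24. Of the cytosolic ribosomal protein genes, 84 of 94 (89.4%) were open in both, and of the respiratory chain genes 87 of 94 (92.6%). These 2 lists were taken by symbol and may also hold genes with other functions. What their missing members encode is not given here, so they are not read as closed ribosomal or respiratory genes.

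Every mitoribosomal protein gene also had at least 1 footprint, a short stretch inside a peak that is cut less than its surroundings, in a promoter peak of each library. Among open promoters of all genes, 95.2% had one in replicate 1 and 93.9% in replicate 2, and 94% of those open in both had one in both. The sequences that follow show such footprinted stretches at the genes described below. They are reference sequence of mm10 from RefSeq's GRCm38 assembly, read 5′ to 3′ on the strand of the named gene, and the capitals mark only matches of the motif each set is named for. A match is a description of the letters and does not show which protein was there.

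The first set shows NRF1 matches (GCGC, any base, TGCGC, on either strand) that lay in a footprint of both libraries. Of the 13 genes with such a site 5 are shown, Mrpl17 with a longer upstream stretch because its promoter had the highest value of all 78. In Mrpl17 and Mrpl12 the match lay upstream of the gene, in Mrpl45, Mrps9 and Mrpl32 in an untranslated region.
Mrpl17 (chr7:105811070-105811196, minus strand): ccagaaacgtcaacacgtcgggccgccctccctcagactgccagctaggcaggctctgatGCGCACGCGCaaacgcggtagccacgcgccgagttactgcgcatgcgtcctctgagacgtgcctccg
Mrpl45 (chr11:97315721-97315750, plus strand): tggagagcgtGCGCGTGCGCgcgactcacc
Mrps9 (chr1:42851218-42851247, plus strand): tgggaggtctGCGCCTGCGCagtctccagg
Mrpl32 (chr13:14613105-14613134, minus strand): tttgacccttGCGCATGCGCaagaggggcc
Mrpl12 (chr11:120484546-120484575, plus strand): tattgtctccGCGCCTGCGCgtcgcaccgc

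The second set shows all 4 genes with a YY1 match (AANATGGC on either strand) in a footprint of both libraries. In Mrps10 and Mrps30 the match runs from the untranslated region into the coding sequence, so that its ATG lies at the annotated start codon. In Mrpl37 and Mrpl47 the annotation of the matched bases is untranslated region, and the Mrpl47 match is on the opposite strand.
Mrps10 (chr17:47368893-47368922, plus strand): atcagggcaccAAGATGGCggcgcgcgcag
Mrps30 (chr13:118387219-118387248, minus strand): cgcggcgggcgAAAATGGCggcggccaggt
Mrpl37 (chr4:107066822-107066851, minus strand): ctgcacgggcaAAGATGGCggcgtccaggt
Mrpl47 (chr3:32736827-32736856, minus strand): ccgtgggagcgGCCATGTTtagtaagggca

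The third set shows ETS matches (CCGGAAG on either strand) in a footprint of both libraries, at 1 gene with a high value, Mrps33, and at 5 genes whose ratio between the libraries stood far from the others. In Mrps33, Mrpl57 and Mrpl21 the match lay in the untranslated region, in Mrps18a, Mrpl58 and Mrpl34 upstream of the gene.
Mrps33 (chr6:39810880-39810909, minus strand): ggggggcgggcCTTCCGGggacgcgcgtgc
Mrpl57 (chr14:57826232-57826261, plus strand): ccccagagagaCCGGAAGcagcgcgccgcc
Mrps18a (chr17:46110967-46110996, plus strand): acacccctgctCCGGAAGcggaagtgcaca
Mrpl58 (chr11:115403724-115403753, plus strand): ctggcggaccgCCGGAAGagtgagcaccgg
Mrpl21 (chr19:3283038-3283067, plus strand): cgctgcttccgCTTCCGGttgggactgtgg
Mrpl34 (chr8:71464878-71464907, plus strand): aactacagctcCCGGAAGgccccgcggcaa

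The value of a promoter is that of its highest promoter peak, in the authors' depth-normalised signal. No source used here says whether this signal is comparable between libraries, so the values of both are set side by side. Over the mitoribosomal protein genes the median value was 6.24 in replicate 1 and 3.86 in replicate 2, against 5.21 and 3.60 over all open promoters. Without the 33 genes that have a divergent neighbour, described below, the median was 4.45 and 3.53. This lay under the median of all open promoters, a set that still holds genes with a divergent neighbour. All open promoters without a divergent neighbour had 4.40 and 3.19. In this like comparison the mitoribosomal median was nearly equal in replicate 1 and higher in replicate 2. Among genes with a divergent neighbour it was lower in replicate 1 (7.85 against 8.18) and higher in replicate 2 (5.09 against 4.73). The quartiles of the mitoribosomal genes were 3.93 and 10.4 in replicate 1, and 3.17 and 5.86 in replicate 2. Those of all open promoters were 1.97 and 10.1, and 1.84 and 5.50, so that the lower quartiles stood further apart than the upper ones. The respiratory chain genes had medians of 8.50 and 4.88, and the cytosolic ribosomal protein genes 8.82 and 5.52.

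The place of each promoter in its library was given by a percentile, the share of open promoters at or below its value. The median mitoribosomal gene stood at percentile 56.7 in replicate 1 and 53.9 in replicate 2. Over the median of the library lay 43 of the 78 genes in replicate 1 (55.1%, background 54.1% of promoters open in both) and 48 in replicate 2 (61.5%, background 51.2%). Among the top 10% of values were 7 genes (8.97%, background 10.8%) in replicate 1 and 10 genes (12.8%, background 10.3%) in replicate 2. These shares stood near the background, except that over the median of replicate 2. At the low end, 0 of the 78 genes lay in the bottom 10% of either library, where the background was 5.25% in replicate 1 and 8.05% in replicate 2. In the lowest 25% lay 7 genes in replicate 1 (8.97%, background 18.8%) and 3 in replicate 2 (3.85%, background 23.2%). The open cytosolic ribosomal protein and respiratory chain genes also had 0 in the bottom 10% of either library. In the lowest 25% lay 0% and 0% of the cytosolic ribosomal protein genes, and 2.3% and 3.45% of the respiratory chain genes. A thin low end was thus shared by all 3 lists.

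**Figure D1:**
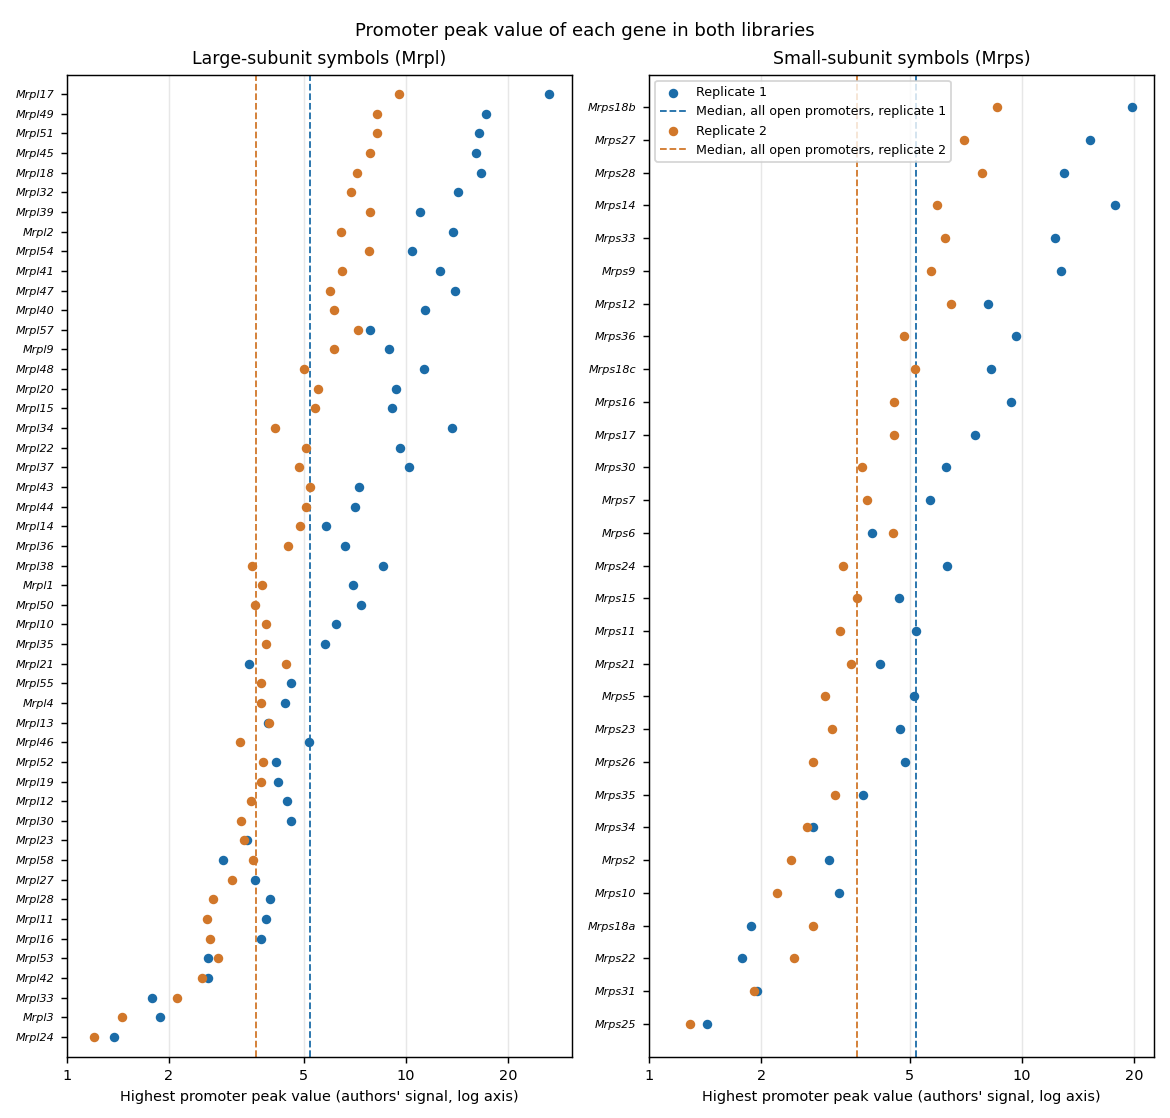
Value of the highest promoter peak of each of the 78 genes (horizontal log axis, authors' signal), Mrpl genes left and Mrps genes right, ordered by mean percentile, with blue points for replicate 1, orange points for replicate 2 and dashed lines for the medians of all open promoters (5.21 and 3.60). The genes spread from 1.38 to 26.5 in replicate 1 and from 1.21 to 9.55 in replicate 2, and both libraries put them in nearly the same order.

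The 78 genes spread widely among themselves. Values ran from 1.38 to 26.5 in the first library and from 1.21 to 9.55 in the second. The order was much alike in both libraries, with a Pearson correlation of 0.909 and a Spearman correlation of 0.894 of the log2 values across the 78 genes. These genes are not independent replicates, and some share a peak.

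The highest promoter was that of Mrpl17, which encodes a large-subunit protein with a bacterial counterpart. Its peak over the start (chr7:105811001-105811320 in replicate 1) had 26.5 in replicate 1 and 9.55 in replicate 2, at percentiles 99.4 and 98.4. If 1 step of the value is 1 read, an assumption, the 95% Poisson intervals were 25.4 to 27.6 and 8.85 to 10.3, and they cover counting error only. The values of Mrpl17 were higher than those of any other of the 78 genes in both libraries.

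Another 5 genes lay over percentile 90 in both libraries: Mrps18b, Mrpl49, Mrpl51, Mrpl45 and Mrpl18. Mrps18b, whose product is a small-subunit protein, had 19.8 and 8.57. Its highest peak (chr17:35916661-35917000 in replicate 1) lay nearest to the start of Ppp1r10, a neighbour that encodes a regulatory subunit of a protein phosphatase. Mrpl49, for a large-subunit protein with no bacterial counterpart, had 17.2 and 8.22, in a peak nearest to the start of Fau, which encodes a cytosolic ribosomal protein as a fusion. Mrpl51 had 16.4 and 8.22 beside Ncapd2, a condensin subunit gene, and Mrpl18 had 16.6 and 7.19 in a peak nearest to Tcp1, a chaperonin subunit gene. Mrpl45, whose product sits at the exit of the peptide tunnel and tethers the ribosome to the inner membrane, had 16.1 and 7.85 with no divergent neighbour. Only Mrpl17 and Mrpl45 of these 6 genes had a highest peak nearest to their own start in both libraries and no divergent gene.

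Other high promoters of small-subunit genes were those of Mrps27 (15.3 and 7.0), Mrps14 (17.7 and 5.91), Mrps28 (12.9 and 7.80) and Mrps33 (12.3 and 6.22). The product of Mrps27 is an RNA-binding protein with PPR repeats. Its peak lay nearest to the start of the divergent gene Ptcd2, which encodes another PPR protein of mitochondria. Mrps14 stood higher among the promoters of replicate 1 (percentile 94.5) than among those of replicate 2 (79.6).

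The lowest promoters belonged to Mrpl24, Mrps25 and Mrpl3, which lay under percentile 25 in both libraries. Mrpl24, for a large-subunit protein with a bacterial counterpart, had 1.38 in replicate 1 and 1.21 in replicate 2. The intervals, on the same assumption, were 1.14 to 1.66 and 0.966 to 1.49. Mrps25, for a small-subunit protein with no bacterial counterpart, had 1.43 and 1.29. Mrpl3, whose product lies near the catalytic centre of the large subunit, had 1.89 and 1.46. All 3 peaks lay nearest to the gene's own start in both libraries.

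Mrps31 followed with 1.95 and 1.91, Mrpl33 with 1.79 and 2.11, Mrps22 with 1.77 and 2.45 and Mrps18a with 1.87 and 2.74. Mrps10 (3.23 and 2.20), Mrpl42 (2.60 and 2.51) and Mrpl53 (2.61 and 2.79) stood a little higher. Against the 6 genes over percentile 90, whose values were 16.1 and more in replicate 1 and 7.19 and more in replicate 2, these 10 genes had at most 3.23 and at most 2.79. Both sets were picked as the ends of the order, so the gap between them is a description.

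The genes were also grouped by what their products are. This grouping was made after the values were seen and gets no test. The 22 large-subunit genes with no bacterial counterpart had median values of 8.21 and 5.05 in replicates 1 and 2, and the 29 with a bacterial counterpart had 4.57 and 3.85. In the small subunit the order was the other way round: the 9 genes with no bacterial counterpart had 3.76 and 2.74, and the 17 with one had 6.30 and 4.52. Of the 22 genes 14 (63.6%) had a divergent neighbour, of the 29 genes 11 (37.9%), of the 9 genes 2 (22.2%) and of the 17 genes 6 (35.3%), and the part of this in the medians was not tested. By symbol, the Mrpl genes had medians of 6.99 and 4.12 and the Mrps genes 5.19 and 3.62. Mrps36 had 9.66 and 4.84.

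The genes that act with the mitoribosome were open as well. All 5 genes of mitoribosomal proteins under other symbols were open in both libraries, with Aurkaip1 at 12.7 and 5.45 and Dap3, which encodes a GTP-binding protein of the small subunit, at 7.75 and 4.21. So were 12 of 12 translation factor genes (medians 4.82 and 3.36). Among these Mtrf1l, a release factor gene, had 22.1 and 8.73, and its paralog Mtrf1 had 1.31 and 1.55. The 22 matched assembly and rRNA modification genes were all open (6.57 and 4.05), with Rbfa, which encodes a factor that binds the small subunit before it is complete, at 21.2 and 10.8 and Fastkd2 at 1.65 and 1.65. All 20 genes of mitochondrial aminoacyl-tRNA synthetases and of the amidotransferase that charges glutamine were open (8.16 and 4.71), and Fars2 had 14.7 and 7.97. The background for each of these counts is 54.1%.

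The peaks were about as wide as those of other open promoters and lay at the start. The median width of the highest promoter peak was 230 bases in replicate 1 and 260 in replicate 2, against 237.5 and 260 for all open promoters. Widths ran from 120 to 508 bases and from 80 to 660 bases. The peak was wider in replicate 2 for 50 of the 78 genes (64.1%, background 65.5%), narrower for 14 and equal for 14. Distances were taken in both libraries from the start nearest to the highest peak of replicate 1. The centre of the peak lay at a median of -12 bases from that start in replicate 1 and -1 in replicate 2, where minus means upstream. Over all open promoters these medians were -32 and -24.5. The highest peak covered that start in 73 genes (93.6%, background 75.5%) in replicate 1 and in 67 (85.9%, background 74%) in replicate 2. In the cytosolic ribosomal protein genes it did so in 91.7% and 83.3%, and in the respiratory chain genes in 93.1% and 85.1%.

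A single promoter peak in each library was found at 48 of the 78 genes (61.5%, background 33.9%), and more than 1 in both libraries at 18 (23.1%, background 45.2%). A single peak in each was found at 57.5% of the open respiratory chain genes and 45.2% of the open cytosolic ribosomal protein genes, and more than 1 in both at 24.1% and 26.2%. The mitoribosomal genes had a median of 4 annotated starts and all open promoters 5, and the part of this in the number of peaks was not tested. The gene with most promoter peaks was Mrpl48, with 5 in replicate 1 and 6 in replicate 2, at 10 annotated starts. Its highest peak had 11.3 and 5.02. A peak from 100582761 to 100582960 on chromosome 7, near a start inside the gene, had 4.61 in replicate 1, and one next to it had 3.78 in replicate 2. Some entries of the lists overlap each other there, so that 2 entries need not be 2 sites.

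**Figure D2:**
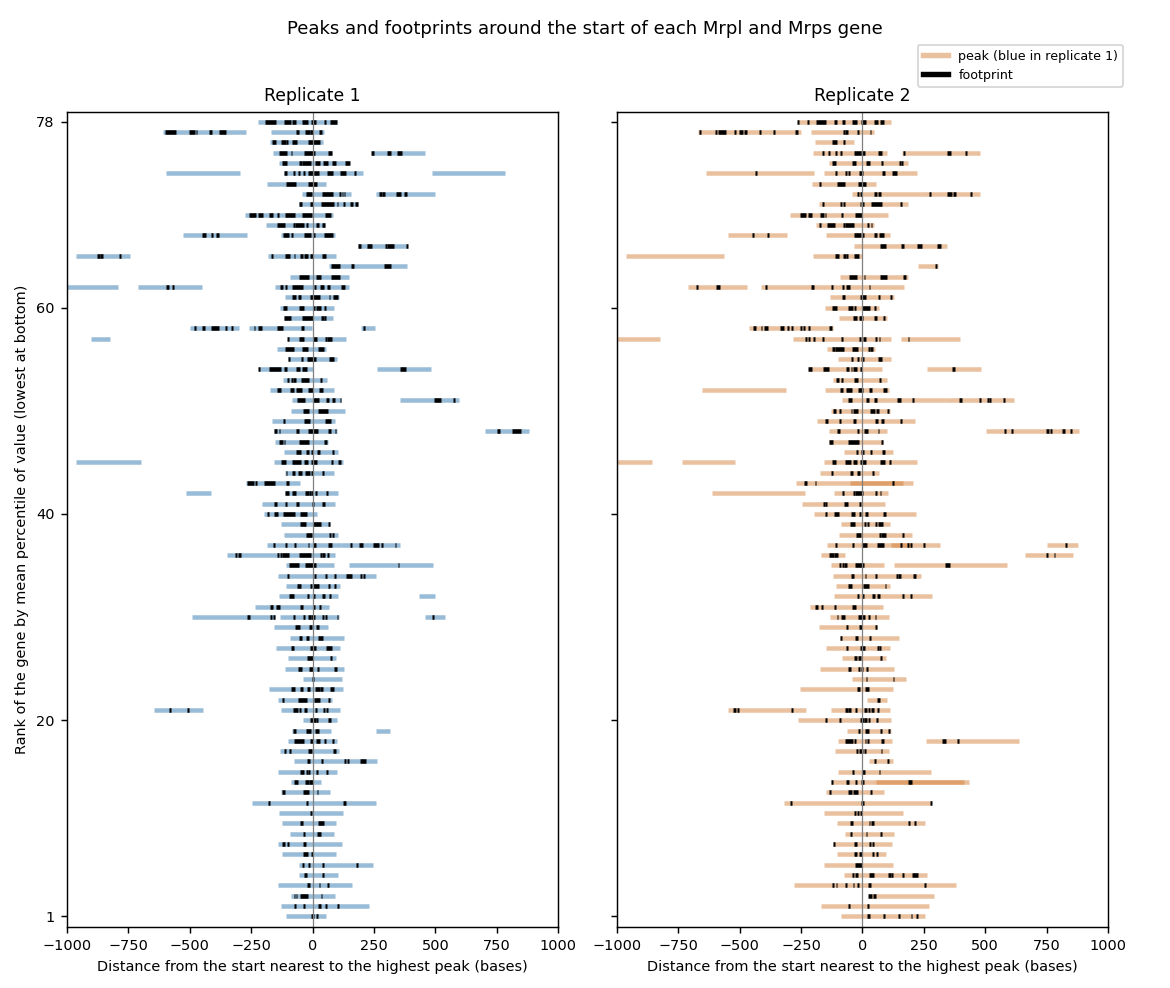
Promoter peaks (blue in replicate 1, orange in replicate 2) and footprints (black) of each of the 78 genes, 1 row per gene ordered by mean percentile of value. The horizontal axis is the distance in bases from the start nearest to the highest peak of replicate 1 (upstream left). Most peaks and footprints stand at the start, with median peak centres of -12 and -1 bases, and 18 genes have more than 1 promoter peak in both libraries, some of them outside the plotted range.

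In 2 genes the libraries put the highest peak at different sites. At Mrpl36, replicate 1 had 6.60 at the upstream start, which is shared with Ndufs6, and 4.45 at an internal start further on, and replicate 2 had 3.88 and 4.49 there. At Mrps28, replicate 1 had 12.9 over the start and 10.8 in a peak 258 bases inside the gene, and replicate 2 had 6.21 and 7.80. In both genes the 2 sites were open in each library, and only their order changed.

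Footprints stood close to the start. The promoter peaks of the 78 genes held 403 footprints in replicate 1 and 402 in replicate 2, with a median of 5 and 4.5 per gene, against 5 and 5 over all open promoters. Their median length was 12 and 10 bases (11 and 9 over all open promoters). Their centres lay at a median of -7.75 and -6 bases from the start nearest to the highest peak of replicate 1, against -35 and -28.5. Of the footprints of replicate 1, 61.0% overlapped one of replicate 2, and of those of replicate 2, 70.6% overlapped one of replicate 1. Over all open promoters these shares were 49.7% and 60.7%. They were 62.6% and 67.4% in the respiratory chain genes, and 54.2% and 62.5% in the cytosolic ribosomal protein genes. The libraries differ in their number of footprints, and the part of depth in these shares was not tested.

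Mrpl48 had the most footprints, 15 in replicate 1 and 12 in replicate 2, over its several peaks. Mrps18b followed with 9 and 13, Mrps12 with 10 and 10, Mrps7 with 11 and 9 and Mrpl43 with 8 and 10. The product of Mrps12 is the counterpart of the bacterial protein at the decoding centre. At the other end Mrps34 had 1 and 3 footprints, Mrps21 had 1 and 2, and Mrpl47 had 3 and 1. Across the 78 genes the number of footprints went weakly with the log2 value (Pearson correlation 0.403 in replicate 1 and 0.375 in replicate 2), and both rest on the same reads.

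Motif matches were counted in the 300 bases from 250 before to 50 after the start nearest to the highest peak of replicate 1. An ETS match was found in 29 of the 78 genes (37.2%, background 19.9% of promoters open in both) and a YY1 match in 17 (21.8%, background 9.44%). An NRF1 match was found in 13 (16.7%, background 12.1%). At least 1 of these 3 was found in 47 genes (60.3%), against 35.7% of all open promoters, and 0 of the 78 genes had all 3, where 0.261% of open promoters did. At least 1 of the 3 was also found in 58.3% of the open cytosolic ribosomal protein genes and 57.5% of the open respiratory chain genes. An ETS match was found in 39.3% of the cytosolic ribosomal protein genes and 24.1% of the respiratory chain genes, a YY1 match in 15.5% and 23%, and an NRF1 match in 9.52% and 21.8%. The SP pattern GGGCGG went the other way, with 40 genes (51.3%, background 69.7%). The GC content of the 300 bases was 59.2% at the median in the mitoribosomal genes and 62% over all open promoters. Its part in the SP and other shares was not tested.

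The other patterns were also counted. NFY (CCAAT) matched in 27 genes (34.6%, background 39.3%), CREB (TGACGT) in 9 (11.5%, background 13.1%) and the E-box CACGTG in 4 (5.13%, background 11%). ZNF143 (ACTACAA, any base, TCC) matched in 5 genes (6.41%, background 2.73%) and the GATA pattern AGATAA in 10 (12.8%, background 5.43%). The TATA pattern TATAAA matched in 4 (5.13%, background 5.69%). ZBTB33 (TCTCGCGA) matched in 1 gene, Mrpl57 (1.28%, background 2.65%), and in 19% of the open cytosolic ribosomal protein genes. A GATA match at the same site in a footprint of both libraries was found in 1 gene, Mrpl43, which is not among these 10: its match lay outside the 300 bases, inside the gene.

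**Figure D3:**
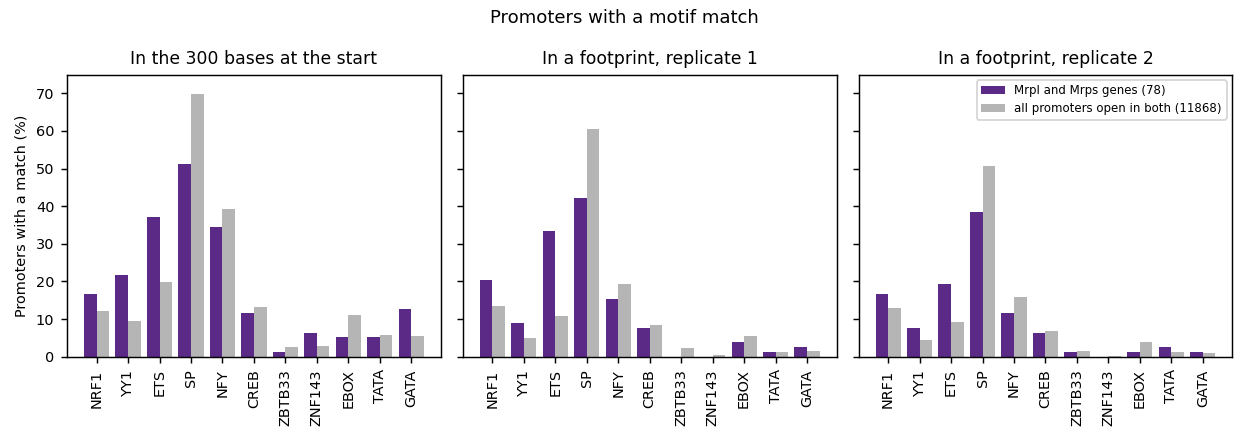
Share of promoters (%, vertical axis from 0) with a match of each of 11 motifs in the 300 bases at the start (left), in a footprint of replicate 1 (middle) and in a footprint of replicate 2 (right), for the 78 Mrpl and Mrps genes (purple) and all 11868 promoters open in both libraries (grey). The ETS bars are 37.2% against 19.9%, 33.3% against 10.9% and 19.2% against 9.15%, and the SP bars are lower for the 78 genes in each panel.

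Matches inside footprints, widened by 5 bases on each side, were counted over all promoter peaks of a gene. ETS matches lay in footprints of 26 genes in replicate 1 (33.3%, background 10.9%), of 15 in replicate 2 (19.2%, background 9.15%) and of 13 in both (16.7%, background 5.96%). NRF1 matches did so in 16 genes (20.5%, background 13.5%), in 13 (16.7%, background 12.9%) and in 13 (16.7%, background 11.6%). YY1 matches did so in 7 genes (8.97%, background 4.86%), in 6 (7.69%, background 4.37%) and in 4 (5.13%, background 2.67%). For both libraries, the open respiratory chain genes had 10.3% with ETS, 21.8% with NRF1 and 8.05% with YY1. The open cytosolic ribosomal protein genes had 10.7%, 10.7% and 7.14%. The mitoribosomal share was thus the highest of the 3 lists for ETS and the lowest for YY1. With no widening, ETS matches lay in footprints of 15 genes in replicate 1 (19.2%, background 4.66%) and of 7 in replicate 2 (8.97%, background 2.97%). YY1 matches then did so in 3 genes (3.85%, background 2.1%) and in 2 (2.56%, background 1.35%). The SP pattern lay in footprints of 33 genes (42.3%, background 60.5%), of 30 (38.5%, background 50.6%) and of 26 (33.3%, background 46%).

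Among genes with a match inside the highest peak, the share that also had a match in a footprint differed between the motifs. That footprint could lie in any promoter peak of the gene, so it need not hold the same match. All 16 genes with an NRF1 match in the highest peak of replicate 1 had one in a footprint of that library. In replicate 2, 12 of 14 (85.7%) did. Over all open promoters these shares were 92.9% and 87.9%. For ETS the counts were 24 of 32 (75%, against 50.9% of all open promoters with such a match) and 15 of 33 (45.5%, against 40.1%). For YY1 they were 6 of 21 (28.6%, against 42.5%) and 4 of 23 (17.4%, against 34.4%). The NRF1 pattern is the longest of these 3 patterns, and a footprint file holds only footprints that passed the authors' threshold.

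The 13 NRF1 sites in a footprint of both libraries belonged to Mrpl9, Mrpl12, Mrpl14, Mrpl17, Mrpl32, Mrpl36, Mrpl39, Mrpl44, Mrpl45, Mrpl54, Mrpl57, Mrps9 and Mrps26. Their centres lay from -134.5 to 231.5 bases from the start, 10 of them within 100 bases of it. The 13 ETS sites belonged to Mrpl20, Mrpl21, Mrpl23, Mrpl34, Mrpl52, Mrpl57, Mrpl58, Mrps18a, Mrps18c, Mrps23, Mrps26, Mrps33 and Mrps34, from -67 to 151 bases, with 12 within 100 bases. Mrpl57 and Mrps26 thus held both, and each pair of sites stood within 1 promoter peak. In Mrps26 the NRF1 letters repeat, and the matches overlap one another.

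YY1 matches stood at a median of 17 bases from the start in the mitoribosomal genes, against -10.5 over all open promoters. They lay on both sides of it, with quartiles of -85.5 and 25.75 (-115.5 and 22.5 over all open promoters). ETS matches stood at -25 (-35 over all open promoters) and NRF1 matches at -33 (-43.5). Of the 18 YY1 matches in the 300 bases, 9 (50%) lay at an annotated start codon, as in Mrps10 and Mrps30 above, against 23.1% of 1212 matches over all open promoters. The YY1 pattern itself holds an ATG.

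The genes with an ETS match in the 300 bases had lower values than those without, 4.39 and 3.53 at the median against 6.60 and 4.49. For NRF1 the genes with a match had 7.06 and 5.09, against 5.78 and 3.78 for those without. For YY1 the medians were 5.78 and 3.72 with a match, against 6.99 and 4.12 without. These are differences between medians of 29, 13 and 17 genes and the rest, with no test.

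A divergent start, that of another protein-coding gene on the opposite strand within 1000 bases, was annotated at 33 of the 78 genes (42.3%). The share was 12.3% of all protein-coding genes and 20.7% of those open in both libraries. It was 41.4% of open respiratory chain genes and 22.6% of open cytosolic ribosomal protein genes. Within 200 bases there were 30 (38.5%, background 15.1%). Of the Mrpl genes 24 had such a neighbour (49.0%), and of the Mrps genes 9 (31.0%).

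Several of these neighbours have mitochondrial products too. Mrpl46 and Mrps11, genes of the large and the small subunit, start 30 bases apart on chromosome 7 and share 1 peak (chr7:78782961-78783180 in replicate 1), with 5.19 and 3.24 in replicates 1 and 2. Mrps12 shares its promoter with Sars2, the mitochondrial seryl-tRNA synthetase gene, with starts 172 bases apart and values of 8.13 and 6.46. Mrpl36 and Mrpl47 overlap the starts of Ndufs6 and Ndufb5, genes of respiratory complex I, and Mrpl43 faces Twnk, the gene of the mitochondrial DNA helicase. Other neighbours work elsewhere, such as Psma2 of the proteasome beside Mrpl32 and the repair gene Helq beside Mrps18c. A shared peak cannot be given to 1 gene of a pair.

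The 33 genes with a divergent start had median values of 7.85 in replicate 1 and 5.09 in replicate 2, against 4.45 and 3.53 for the 45 without one. Over all open promoters the medians were 8.18 and 4.73 with a divergent start, against 4.40 and 3.19 without one. The ranges overlapped widely, and the highest of all 78 genes, Mrpl17, had no divergent start. All genes under percentile 25 in both libraries had none. In 62 of the 78 genes the highest peak lay nearest to the gene's own start in both libraries, and these had medians of 5.48 and 3.75. In the other 16 the nearest start was that of another gene in at least 1 library, and the medians were 7.99 and 5.50.

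**Figure D4:**
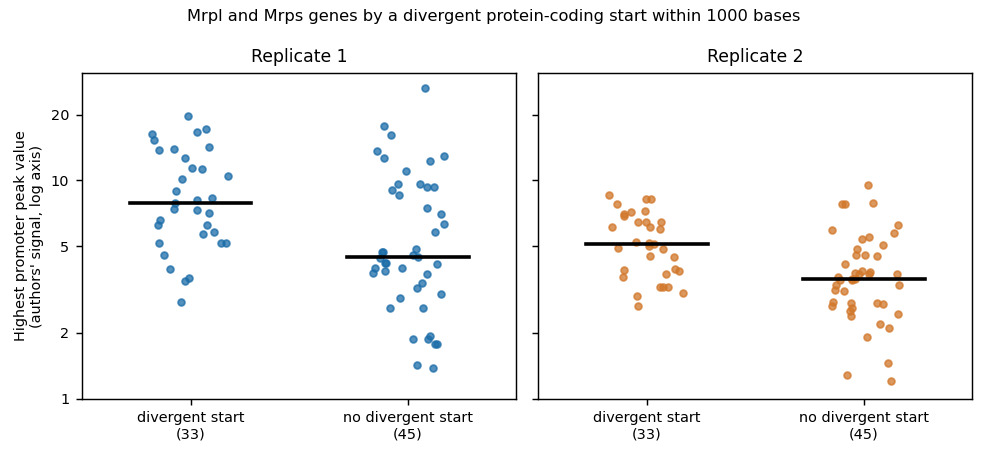
Value of the highest promoter peak (vertical log axis, authors' signal) of each of the 33 genes with a divergent protein-coding start within 1000 bases and of the 45 without, in replicate 1 (left) and replicate 2 (right); black bars are medians and points are spread sideways for legibility. The medians are 7.85 against 4.45 and 5.09 against 3.53, and the points of both sets overlap.

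The libraries differed in scale: 70 of the 78 values were lower in replicate 2 (89.7%, background 90.8%), and the 8 higher ones were those of Mrpl13, Mrpl21, Mrpl33, Mrpl53, Mrpl58, Mrps6, Mrps18a and Mrps22. To set this aside, a running median of the log2 ratio over shared promoter peaks of like height was subtracted. The excess ratio left over was 0.11 at the median of 76 genes (SD over genes 0.35), against 0.003 over all open promoters, and it was above 0 in 50 of the 76 (65.8%, background 50.3%). In the cytosolic ribosomal protein genes it was above 0 in 68.8% and in the respiratory chain genes in 52.9%. Mrpl36 and Mrps28 have no such ratio, since the highest peaks were at different sites. With 1 library against 1, this describes these 2 libraries and has no test.

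The excess ratio was highest at Mrps18a (0.96), Mrpl21 (0.95), Mrps22 (0.86), Mrpl57 (0.82), Mrps6 (0.81) and Mrpl58 (0.80). Mrpl21, for a large-subunit protein with a bacterial counterpart, had 3.45 in replicate 1, with a counting interval of 3.06 to 3.88, and 4.44 in replicate 2, with one of 3.96 to 4.95. Mrpl58, whose product frees stalled ribosomes as a peptidyl-tRNA hydrolase, had 2.88 and 3.53. Mrpl57 stood at percentile 65.5 in replicate 1 and 90.2 in replicate 2, with 7.85 and 7.22.

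It was lowest at Mrpl34 (-0.80), Mrpl38 (-0.55), Mrps14 (-0.45) and Mrpl50 (-0.33). Mrpl34, a short gene with a single annotated start, had 13.7 in replicate 1, with a counting interval of 12.9 to 14.5. In replicate 2 it had 4.12, with an interval of 3.66 to 4.61. It stood at percentile 86.4 in replicate 1 and 57.3 in replicate 2.

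**Figure D5:**
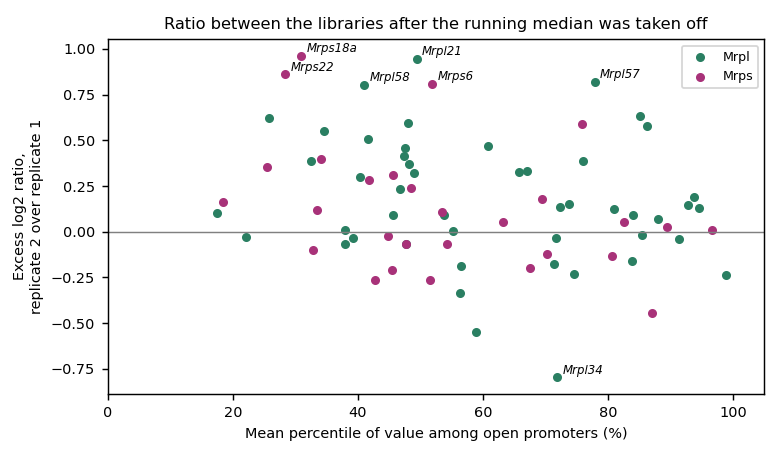
Excess log2 ratio of replicate 2 over replicate 1 (vertical axis) against the mean percentile of value in both libraries (horizontal axis, %) for the 76 genes whose highest peak is at the same site, Mrpl genes green and Mrps genes purple, with the genes beyond 0.75 named. The points run from -0.80 at Mrpl34 to 0.96 at Mrps18a around a median of 0.11.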

How the data were processed

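Peak lists and footprints of 2 DNase-seq libraries were used, with 47198 and 36523 peaks (longer lists) and 123897 and 94430 footprints. Per the file headers, the authors made each file from that library's own filtered alignments to mm10, not pooled; the peak caller and thresholds are not stated there. The deposited peak value is a depth-normalised signal. It moves in steps of 0.0123 and 0.0139, and values departed from whole steps by at most 0.00408 and 0.00482 step, so that 1 step may be 1 read (81.2 and 72.1 times 1000000 reads in all, an assumption). The deposited footprint score is constant (0.01), so only positions were used. The authors' FDR, a q-value type, is listed only under 0.05 and was not tested on.

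Promoter peaks, footprints by their centre, motif matches (11 patterns, both strands, wholly within footprints widened by 5 bases) and starts (GENCODE vM21) were joined in Python 3.11.15 with numpy 2.4.6, pandas 2.3.3 and scipy 1.17.1. Sequences are from RefSeq GRCm38.p6. The script was tested on simulated data. The excess ratio is the log2 ratio minus a running median over shared promoter peaks ranked by mean log value. An overlap needed 1 base.

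Named were, within each subunit by symbol, the 5 highest and 5 lowest values, the 5 with most footprints, the 5 highest and lowest excess ratios, up to 5 with more than 1 peak in both libraries and up to 8 highest with a divergent start. Other genes and sequences, the classes by bacterial counterpart and 3 alternatives were chosen after values were seen. The members and lists were chosen with earlier results of these data known. Of the assembly genes, Trmt61b had no match in the annotation. Of the marker genes, 1 is not reported here. Genes are not replicates, and no test was run; alternatives were other peak lists, distances, starts, footprint widths and leaving out each library.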

Additional observations from a re-analysis of the deposited data

How the results depend on the processing

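Of 52 alternatives for the main values, 46 kept the value and 6 moved it, with no change of sign among values that have one. The cause was not tested. Counts within 1.5 times were taken as kept, and the limit for medians was narrower than the spread over genes. The moved median below, 4.448, thus still lay between the quartiles of the 78 genes in replicate 1 (3.93 and 10.4). The median value in replicate 1 was 4.448 without the genes that have a divergent neighbour, against 6.24 for all 78, and in replicate 2 it was 3.53 against 3.86. Both then lay under the medians of all open promoters (5.21 and 3.60). Against open promoters without a divergent neighbour (4.40 and 3.19) they were nearly equal in replicate 1 and higher in replicate 2. Without widening of footprints, YY1 matches fell to 3 genes in replicate 1 and 2 in replicate 2, and ETS matches to 15 and 7. With footprints widened by 10 bases, YY1 matches in replicate 2 were at 12 genes. All 78 genes were open within 500 and within 2500 bases, and with either replicate left out the count was 78. It was 77 in the shorter lists and in the upper 50% of peaks by value (Mrpl24 lost in each), and 76 with the 5′ end of the gene alone (Mrpl35 and Mrps24 lost). No paired analysis was possible because both libraries belong to 1 group. With 1 library per replicate, counting error is the only error known for a single value.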
